A study of Homo sapiens with 2 samples.

Results

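Long noncoding RNA genes were examined in A549 cells, a human lung carcinoma line, without TGF-β and after 12 h with 1 ng/ml TGF-β. The genes were chosen by their symbols: those that start with LINC or SNHG, those that end in -AS1, -AS2, -IT1 or -DT, and those that start with MIR and end in HG. They were then selected on signal, with a probe set kept when the mean of its control and TGF-β signals was 50 or more, and the brightest probe set represented a gene. Of 1870 genes with such symbols, 438 passed, among 12305 genes of all kinds that passed the same limit. They comprised 129 LINC genes, 210 antisense genes (-AS1 or -AS2), 77 intronic or divergent genes (-IT1 or -DT), 16 microRNA host genes and 6 SNHG genes. RefSeq listed 431 of them as lncRNA and 2 as antisense RNA, and 5 had no entry in its gene table.

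RNA of each culture was hybridized to 1 Affymetrix array, and the deposited values are MAS5 intensities, in which the probe pairs of a probe set are combined into a single linear signal. There was 1 array per condition, so no difference has a replicate check and no p-value is given. In the text a gene is higher or lower if its signal changed 2-fold or more between the arrays, a threshold on size alone. Since the selection used both signals, the values below are a description of these 2 arrays. Signals of different probe sets are not compared as amounts of RNA, because each probe set binds with its own strength. With 1 bulk sample per condition, fewer cells that make an RNA and less RNA per cell cannot be told apart.

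Long noncoding RNAs are transcribed and often spliced and polyadenylated like messenger RNAs, but are not translated into a conserved protein. Antisense genes are read from the strand opposite to a neighbour, divergent transcripts start close to a neighbour's promoter and run away from it, and host genes carry microRNAs or small nucleolar RNAs that are cut out of the transcript. Symbols with -AS1 or -DT are therefore built on the symbol of a nearby gene. Smad proteins carry the TGF-β signal to the nucleus and recognise a short DNA motif known as the Smad box.

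Several of the genes described below host microRNAs, whose mature sequences from RefSeq (GRCh38.p14) are shown because they define what each host transcript can give rise to. The seed, bases 2 to 8, which pairs with target messages, is in capitals. The 5p arms of the MIR181A2HG microRNAs share the seed ACAUUCA, and the 5p arms of the let-7 microRNAs of MIR100HG and MIRLET7BHG share the seed GAGGUAG. Their 3p arms have other seeds and are not shown.
miR-181a-5p (chr9:124692480-124692502, + strand): aACAUUCAacgcugucggugagu
miR-181b-5p (chr9:124693725-124693747, + strand): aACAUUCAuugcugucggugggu
miR-1915-3p (chr10:21496576-21496595, - strand): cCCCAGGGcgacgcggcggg
miR-1915-5p (chr10:21496609-21496630, - strand): aCCUUGCCuugcugcccgggcc
miR-100-5p (chr11:122152275-122152296, - strand): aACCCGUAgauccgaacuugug
miR-125b-5p (chr11:122099809-122099830, - strand): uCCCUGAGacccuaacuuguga
let-7a-5p (chr11:122146568-122146589, - strand): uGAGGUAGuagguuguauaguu
let-7b-5p (chr22:46113691-46113712, + strand): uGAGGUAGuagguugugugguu
miR-31-5p (chr9:21512158-21512178, - strand): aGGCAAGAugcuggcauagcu
miR-210-3p (chr11:568112-568133, - strand): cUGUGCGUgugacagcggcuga

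Promoter windows of 300 bases around the start, from RefSeq (GRCh38.p14), are shown for 3 genes that were higher with both signals above background and for HOXA-AS2, the gene that was lower with both signals above background. Capitals mark a Smad box (CAGAC, or GTCTG on the other strand) and, in RARA-AS1, also a TATA box (TATAAA). The window of RARA-AS1 holds 2 Smad boxes, those of LINC00312 and LINC02086 hold 1 each, and none of the letters searched is in the window of HOXA-AS2. The windows shown do not stand for all higher genes. Among others higher with both signals above background, LINC00842 and LINC02615 have 1 Smad box each, and FRMD6-AS1, MIR1915HG and NDUFV1-DT have none.
LINC00312 (chr3:8571532-8571831, + strand): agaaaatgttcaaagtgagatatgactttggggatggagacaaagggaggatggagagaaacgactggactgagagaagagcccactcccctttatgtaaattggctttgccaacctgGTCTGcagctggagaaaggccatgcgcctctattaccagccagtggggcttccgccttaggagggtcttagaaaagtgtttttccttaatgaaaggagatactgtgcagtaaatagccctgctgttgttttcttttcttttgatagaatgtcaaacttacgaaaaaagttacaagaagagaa
LINC02086 (chr17:48642377-48642676, + strand): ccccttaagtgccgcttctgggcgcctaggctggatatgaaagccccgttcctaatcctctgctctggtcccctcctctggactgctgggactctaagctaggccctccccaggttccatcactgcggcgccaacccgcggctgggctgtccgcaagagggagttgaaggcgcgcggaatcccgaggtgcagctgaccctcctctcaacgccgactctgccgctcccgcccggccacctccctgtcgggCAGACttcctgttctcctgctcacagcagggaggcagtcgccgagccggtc
RARA-AS1 (chr17:40343087-40343386, - strand): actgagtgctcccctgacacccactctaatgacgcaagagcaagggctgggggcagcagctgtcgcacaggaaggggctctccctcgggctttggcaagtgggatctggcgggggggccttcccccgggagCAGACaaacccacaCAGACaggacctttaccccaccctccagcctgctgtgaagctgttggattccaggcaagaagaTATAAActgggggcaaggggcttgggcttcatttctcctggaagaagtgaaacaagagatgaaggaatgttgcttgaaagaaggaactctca
HOXA-AS2 (chr7:27121669-27121968, + strand): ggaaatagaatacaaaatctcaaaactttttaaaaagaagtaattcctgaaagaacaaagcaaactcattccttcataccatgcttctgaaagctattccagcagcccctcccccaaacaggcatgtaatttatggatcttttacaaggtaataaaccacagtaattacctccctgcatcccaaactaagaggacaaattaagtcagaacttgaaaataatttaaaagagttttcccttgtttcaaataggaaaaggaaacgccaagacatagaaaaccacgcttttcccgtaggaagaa

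A window was found for 335 of the 438 genes, and 5 motifs were searched on both strands. The Smad box CAGAC was in 43.3% of these windows and in 44.95% of the 27305 windows of all genes. It was in 9 of the 18 windows of higher genes and in 4 of the 17 windows of lower genes. The AP-1 motif TGACTCA was in 5.67% of the windows of long noncoding RNA genes and 4.92% of all windows, the CRE motif TGACGTCA in 2.09% and 1.98%, the E-box CACGTG in 8.36% and 7.43%, and the TATA box TATAAA in 8.36% and 12.0%. None of these letter strings contains another. A match describes the letters of a window and is not evidence of binding.

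On each array 41091 probe sets carried 1 gene symbol, and the trimmed means of the arrays were equal (500.1 for both). The highest signal among 27 Bacillus subtilis control probe sets, taken here as the background level, was 45.8 without and 56.6 with TGF-β. The response to TGF-β was present by its known targets, since 6 of 10 measured genes of a list of TGF-β responses were higher, among them COL1A1, a collagen chain, at 821 without and 10680 with TGF-β. All 6 epithelial markers were measured (summed signal 73975 and 88879, median log2 fold change -0.13), with the keratins KRT7, KRT8 and KRT18 making up most of the sum. Of these markers CDH1, which encodes E-cadherin, was lower (1952 and 846), and KRT19 (1492 and 991) and EPCAM (2176 and 1616) differed by less than 2-fold. No fibroblast marker of 6 passed the limit, 3 of 6 immune markers did (summed signal 343 and 271, with CD14 at 190 and 63.0, CD3E at 48.8 and 74.8 and CD79A at 104 and 133) and 1 of 4 endothelial markers did (56.4 and 65.4).

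Of the 438 long noncoding RNA genes, 28 were at least 2-fold higher with TGF-β (6.39%), where 3.88% of all genes were, and 18 were at least 2-fold lower (4.11%), where 2.87% of all genes were. The remaining 392 differed by less. The median log2 fold change was -0.10, with 182 genes above 0 and 256 below, and the median over all genes was -0.03. The long noncoding RNA genes were dim: 72.4% had a mean signal under 200, against 25.8% of all genes. At a mean signal from 50 to 200, 22 of 317 were higher (6.94%, all genes 7.14%) and 17 were lower (5.36%, all genes 8.28%). At 200 or more, 6 of 121 were higher (4.96%, all genes 2.75%) and 1 was lower (0.826%, all genes 0.986%). These shares are not matched for brightness, since 71 of the 121 had a mean signal under 500, and 2223 of the 9127 genes of all kinds did.

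When each signal under the background level of its array was raised to that level, 23 genes were at least 2-fold higher (5.25%, all genes 3.4%) and 4 were at least 2-fold lower (0.913%, all genes 1.66%). In 15 of the 28 higher genes the control signal was at background, and in 17 of the 18 lower genes the TGF-β signal was. Such genes passed the limit through the array on which they were bright. Their fold is given below as at least the ratio to the background level. The spread of log2 fold changes over long noncoding RNA genes, as a median absolute deviation scaled to match a standard deviation, was 0.71 at a mean signal from 50 to 100, 0.47 from 100 to 200 and 0.31 at 1000 or more, and over all genes it was 0.71, 0.52 and 0.25. From 200 to 500 it was 0.47 over long noncoding RNA genes and 0.39 over all genes.

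**Figure D1:**
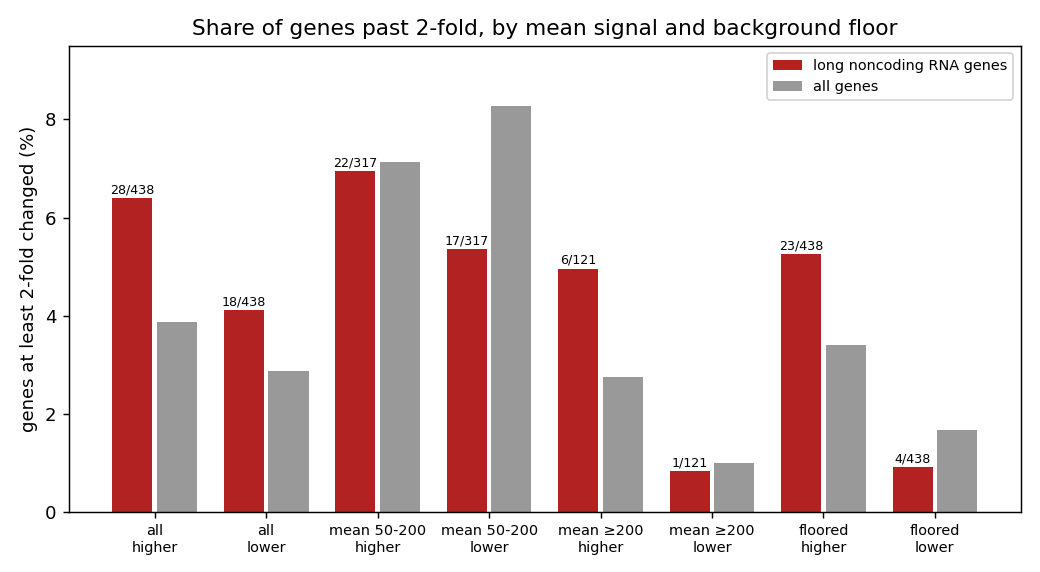
Bars show the percentage of long noncoding RNA genes (red, with counts) and of all genes (grey) at least 2-fold higher or lower with TGF-β, for all genes past the limit, for mean signals of 50 to 200 and of 200 or more, and with signals raised to the background level ("floored"). The red bar for all higher genes is 6.39% against 3.88% for the grey one, while from 50 to 200 they are 6.94% and 7.14%.

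Among the 129 LINC genes, which are mostly intergenic transcripts named by number, 10 were higher, 6 were lower and 113 were neither. Of all genes 3.88% were higher and 2.87% lower, and 7.14% and 8.28% at a mean signal from 50 to 200. A mean signal under 200 was found in 73.6% of the LINC genes. LINC02086, which lies next to HOXB9 in the HOXB region, had a signal of 64.9 without and 589.8 with TGF-β, a log2 fold change of 3.18. LINC01279 had 114 and 663, a log2 fold change of 2.54. LINC00312 had 171 and 789, a log2 fold change of 2.20. For these 3 genes both signals were above background, and the differences compare with a spread of 0.47, 0.45 and 0.36 over probe sets of like brightness. LINC00842 was higher by less, with 166 and 384, a log2 fold change of 1.21, as were LINC02615 (77.4 and 175.8) and LINC00525 (51.2 and 113.8).

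The other higher LINC genes had a control signal at background. LINC03024 had 3.04 without and 247.9 with TGF-β, at least 5.41-fold higher. LINC01210 had 26.8 and 188.8, at least 4.12-fold higher. LINC01304 had 30.6 and 106.4, at least 2.32-fold higher, and LINC02591 did not reach 2-fold against background. All 6 lower LINC genes had a TGF-β signal at background. LINC00488 was at least 3.38-fold lower, from 191.1 to 46.7, and LINC00671 at least 2.06-fold lower, from 116.5 to 49.4. LINC00886, LINC02175, LINC00445 and LINC00851 did not reach 2-fold against background.

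**Figure D2:**
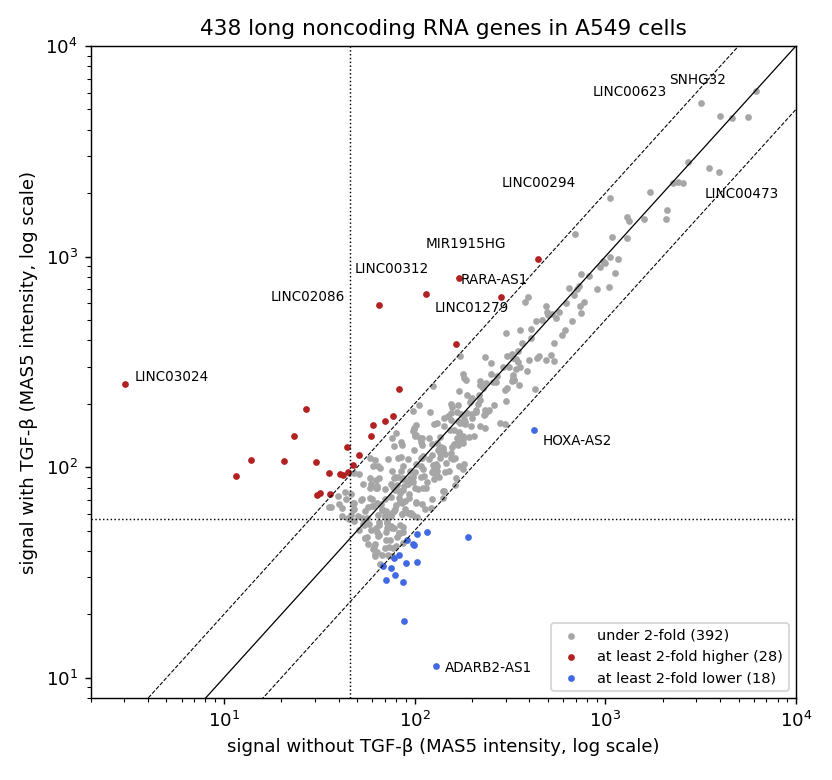
Each point is 1 of the 438 long noncoding RNA genes, by its signal without (x) and with (y) TGF-β on log scales. Equal signals fall on the solid line, 2-fold differences on the dashed lines, and the background levels (45.8 and 56.6) are dotted. Most coloured points lie beside the dotted lines, and LINC00312, LINC01279 and LINC02086 stand above the upper dashed line with both signals above background.

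Among the bright LINC genes, none with a mean signal of 1000 or more differed by 2-fold. LINC00473, known as a target of cAMP and CREB signaling, had 3962 without and 2510 with TGF-β, a log2 fold change of -0.66, where the spread at that brightness was 0.22. LINC00623 had 3159 and 5334 (0.76) and LINC00294 had 1054 and 1903 (0.85). LINC00621 had 2266 and 2231 (-0.02). The probe sets of LINC00623 and LINC00621 have names that mark targets shared between genes, so their signals may hold other transcripts.

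Among the 210 antisense genes, 10 were higher, 10 were lower and 190 were neither. The shares over all genes were 3.88% and 2.87%, and 7.14% and 8.28% at a mean signal from 50 to 200. Of the antisense genes 72.9% had a mean signal under 200. RARA-AS1, which overlaps the gene of retinoic acid receptor alpha, had 283 without and 642 with TGF-β, a log2 fold change of 1.18, while RARA itself had 266 and 278. FRMD6-AS1 had 60.8 and 159.5, a log2 fold change of 1.39. ATXN1-AS1 (70.3 and 165.5), CCDC144NL-AS1 (59.0 and 140.6) and DSG2-AS1 (47.8 and 102.6) were higher with both signals above background. With the control signal at background, PTOV1-AS2 was at least 2.71-fold higher (44.4 and 124.4), RIPOR3-AS1 at least 2.35-fold (13.8 and 107.8) and HDAC4-AS1 at least 2.08-fold (44.8 and 95.2). CBR3-AS1 (11.5 and 91.0) and SPATA3-AS1 (30.9 and 74.0) did not reach 2-fold against background.

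HOXA-AS2, which overlaps HOXA3 and HOXA4 in the HOXA cluster of developmental transcription factors, had 422 without and 150 with TGF-β, a log2 fold change of -1.49. It was the only one of the 18 lower genes with both signals above background, but its other probe set past the limit had 108 and 79.7, and with the median over the probe sets its log2 fold change was -0.96, under 2-fold. HOXA3 and HOXA4 were not analysed here, and the adjacent HOXA2 had 99.2 and 89.1. HOXD-AS2, from the HOXD cluster, had 125 and 242 and lay just under 2-fold higher. ADARB2-AS1 was at least 2.30-fold lower, from 130.1 to 11.3. For the other 8 lower antisense genes the difference was under 2-fold against background, namely ARRDC3-AS1 (88.2 and 18.6), KIF9-AS1 (87.0 and 28.5), SOX21-AS1 (89.9 and 34.9), ADAD2-AS1 (71.2 and 29.1), KMT2E-AS1 (82.7 and 38.4), MRGPRG-AS1 (103 and 48.1), LAMTOR5-AS1 (77.8 and 37.1) and PRKAG2-AS1 (91.7 and 44.9).

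**Figure D3:**
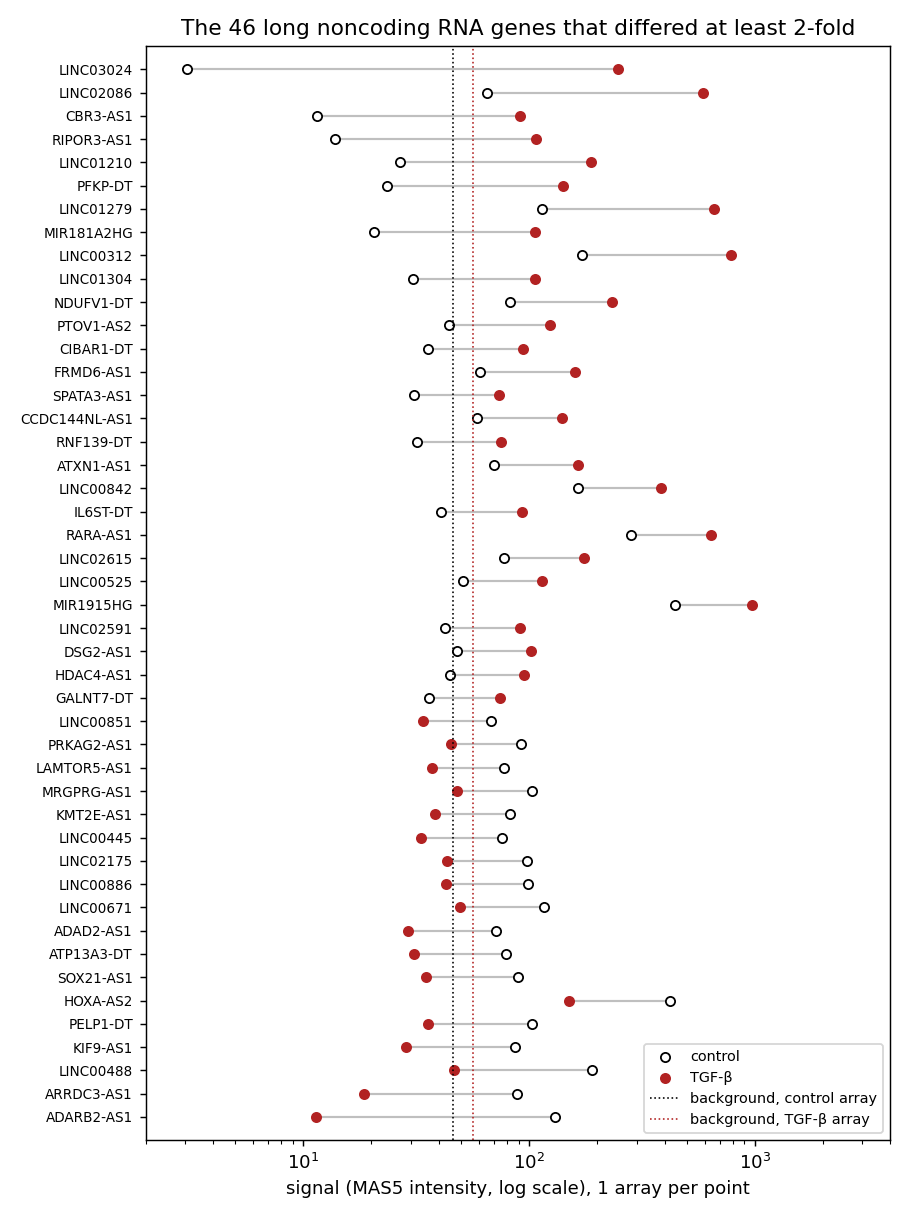
Signals without (open) and with (red) TGF-β of the 46 long noncoding RNA genes that differed at least 2-fold, on a log scale with 1 array per point. Dotted lines are the background levels (45.8 and 56.6). In 15 of 28 higher genes the open point, and in 17 of 18 lower genes the red point, lies at or left of its line.

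The gene on whose symbol an antisense, intronic or divergent gene is named was measured for 233 of 287 such genes. In 1 pair both were higher, FRMD6-AS1 and FRMD6, a FERM domain protein linked to Hippo signaling, whose signal was 684 without and 4723 with TGF-β. A further probe set of FRMD6 had 521 and 4679. By signals as deposited, the noncoding RNA was higher in 12 further pairs and lower in 7 while its partner was neither, and the partner was higher in 9 and lower in 6 while the noncoding RNA was neither. In all 7 pairs with a lower noncoding RNA its TGF-β signal was at background and the difference was under 2-fold against background. With folds taken against background, the noncoding RNA alone was higher in 9 pairs, the partner alone was higher in 8 and lower in 4, and 211 pairs showed no 2-fold difference on either side. ID2, an inhibitor of helix-loop-helix transcription factors, had 1453 without and 408 with TGF-β, while ID2-AS1 had 94.7 and 88.7 at its brightest probe set and 79.4 and 41.4, the latter at background, at another. KDM7A, a histone demethylase, had 142 and 454, while KDM7A-DT had 85.4 and 60.2. Across the 185 pairs with all signals above background, Pearson's r of the log2 fold changes was 0.20, and 0.11 without the FRMD6 pair. Genes of a pair share a locus and the same 2 arrays, and pairs are not replicates.

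**Figure D4:**
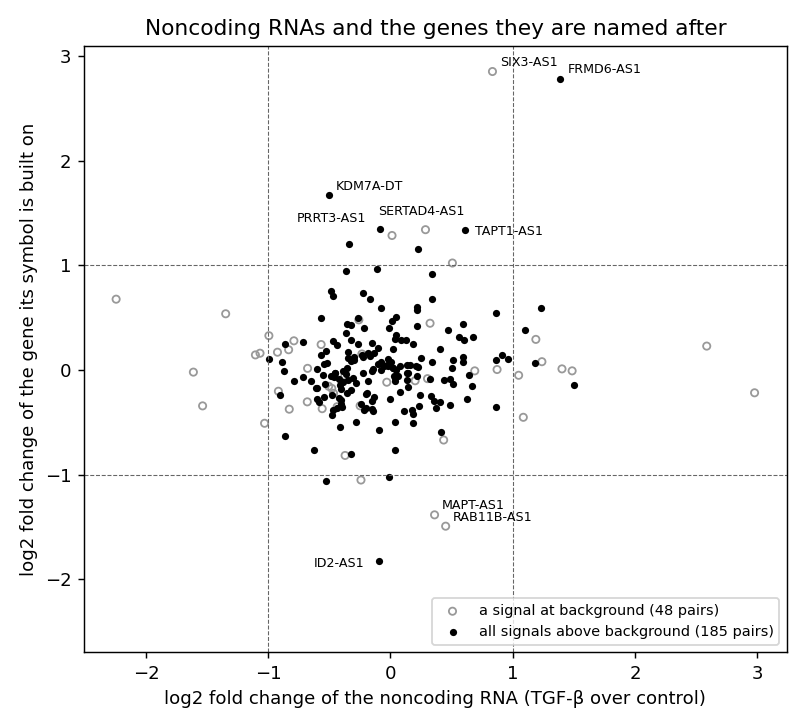
Each point is a noncoding RNA (x, log2 fold change with TGF-β over control) and the gene its symbol is built on (y), filled where all signals were above background (185 pairs) and open otherwise (48 pairs). Dashed lines mark 2-fold. FRMD6-AS1 is the only filled point beyond the dashed lines on both axes, and ID2-AS1 and KDM7A-DT have partners beyond them while they themselves are not.

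Among the 77 intronic or divergent genes, 6 were higher, 2 were lower and 69 were neither. Their median log2 fold change was -0.22, and that of all genes was -0.03. The shares over all genes were 3.88% and 2.87%, and 7.14% and 8.28% at a mean signal from 50 to 200. In this class 71.4% had a mean signal under 200. NDUFV1-DT, which starts beside the gene of a respiratory complex I subunit, had 82.5 without and 234.1 with TGF-β, a 2.84-fold difference. PFKP-DT, beside a phosphofructokinase gene of glycolysis, had 23.4 and 140.9 and was at least 3.07-fold higher. CIBAR1-DT (35.6 and 94.2) and IL6ST-DT (40.7 and 92.8), beside the gene of the interleukin 6 signal transducer, were at least 2.05-fold and 2.03-fold higher. RNF139-DT and GALNT7-DT did not reach 2-fold against background, nor did PELP1-DT and ATP13A3-DT, which were lower. PPP3CA-DT, at 426 and 234, had a log2 fold change of -0.86. The brightest probe sets of this class differed by less, with RAB30-DT at 1089 and 1239, C2orf74-DT at 1063 and 996 and RNASEH1-DT at 905 and 704.

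Of the 16 microRNA host genes, whose RefSeq extents hold 26 microRNA genes, 2 were higher and none was lower. Of all genes 3.88% were higher and 2.87% lower, and 7.14% and 8.28% at a mean signal from 50 to 200. Of the host genes 75% had a mean signal under 200. MIR1915HG, the host of miR-1915, had 442 without and 976 with TGF-β, a log2 fold change of 1.14. MIR181A2HG, the host of the miR-181a and miR-181b sequences above, had 20.6 and 106.8 and was at least 2.33-fold higher. MIR100HG, the host of miR-100, let-7a and miR-125b, had 377 and 609, a log2 fold change of 0.69. MIR31HG had 748 and 827, and MIR210HG, whose microRNA is known for its response to hypoxia, had 61.8 and 107.8. MIRLET7BHG, the host of let-7b, had the largest difference downward in this class, 82.6 and 48.7, with the second signal at background. The array measured host transcripts and not mature microRNAs.

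None of the 6 SNHG genes, which host small nucleolar RNAs that guide chemical modification of ribosomal RNA, differed by 2-fold. SNHG32 had 6137 without and 6125 with TGF-β, SNHG19 4598 and 4569, and SNHG33 625 and 601. SNHG17, the host of the SNORA71 small nucleolar RNAs, had 5570 and 4614, a log2 fold change of -0.27. SNHG28 had 158 and 193, a log2 fold change of 0.29, and SNHG4 had 77.9 and 88.8. Another list held other small nucleolar RNA hosts and messages of the terminal oligopyrimidine type, such as those of ribosomal proteins. Of these, 26 of 42 were measured and 0 were higher or lower by 2-fold, with a median log2 fold change of 0.16. The largest difference was that of GAS5, with 146 and 99.1 (-0.56), and the largest rise that of VIM, with 23706 and 30220 (0.35).

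The 3 brightest antisense genes differed by less than 2-fold at their brightest probe sets. FGD5-AS1 had 4005 without and 4653 with TGF-β (log2 fold change 0.22), OIP5-AS1, also known as Cyrano, had 3496 and 2648 (-0.40), and WAC-AS1 had 2728 and 2803 (0.04). Further probe sets of OIP5-AS1 had 1562 and 827 (-0.92) and 1347 and 1029 (-0.39), so its readings ran the same way with different sizes. OTUD6B-AS1 had 1332 and 1468 at its brightest probe set and 435 and 207 at another (-1.07).

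Several genes had more than 1 probe set past the limit, which gives a second reading of the same RNA on the same arrays. Of 76 such genes, 43 had all their probe sets past the limit on the same side of 0, not counting dimmer ones. LINC00312 was read by a further probe set at 43.9, a background signal, without and 242.0 with TGF-β, and MIR1915HG by probe sets at 491 and 821 and at 233 and 571. The further probe sets of HOXA-AS2 had 108 and 79.7, and 38.0 and 31.4, the last at background. Those of PRKAG2-AS1 had 64.4 and 63.0, and 10.6 and 54.2, the latter pair both at background, while the brightest had 91.7 and 44.9. Its probe sets past the limit had log2 fold changes of -1.03 and -0.03. The probe sets of LINC00667 ran from a log2 fold change of -0.44 to 0.89. Of the 438 genes, 82 were represented by a probe set whose name ends in _s_at, _x_at or _a_at, among them 5 of the 46 that differed by 2-fold. Such names mark a target shared between transcripts, either of the same gene or of different genes.

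**Figure D5:**
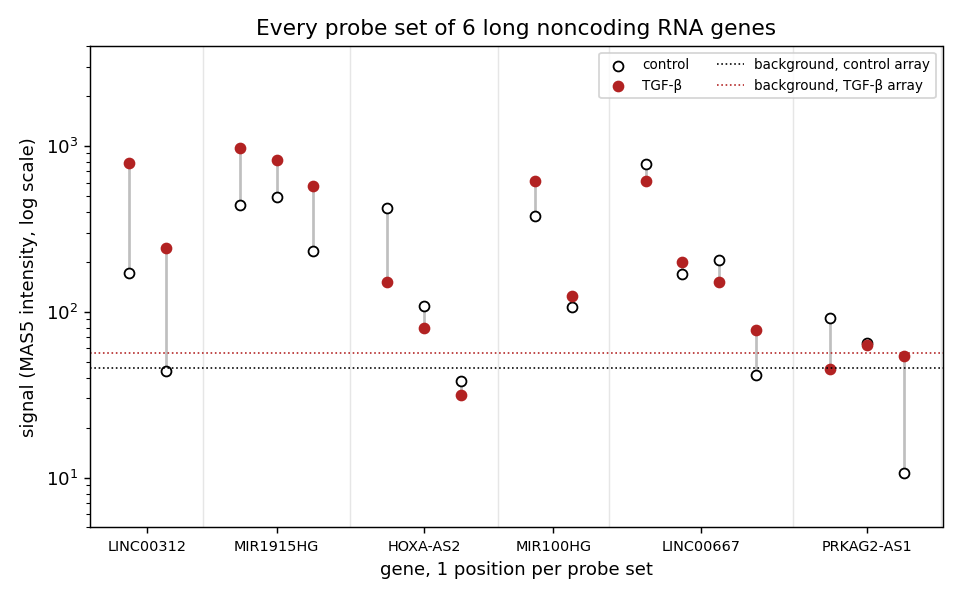
Signals without (open) and with (red) TGF-β for every probe set of LINC00312, MIR1915HG, HOXA-AS2, MIR100HG, LINC00667 and PRKAG2-AS1, 1 position per probe set, on a log scale with background levels dotted. The red points lie above the open ones at every probe set of LINC00312, MIR1915HG and MIR100HG, below them at every probe set of HOXA-AS2, and on both sides for LINC00667 and PRKAG2-AS1. The PRKAG2-AS1 probe set with the red point above has both signals at background.

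Protein-coding neighbours in the RefSeq annotation were then read beside the 2-fold genes, a comparison chosen after the values were seen. LINC00312 overlaps LMCD1, a LIM domain regulator of transcription, which had 860 without and 4253 with TGF-β at its brightest probe set, 125 and 1327 at another, and 92.4 and 166 at the remaining one. MIR1915HG lies next to SKIDA1, which had 209 and 446 at its brightest probe set and 57.1 and 101.6, under 2-fold, at another. HOXB9, next to LINC02086, differed by less than 2-fold, with 75.1 and 102.1 at its brightest probe set and 50.6 and 67.9 at another. Whether the probe sets of overlapping genes read 1 strand only was not tested. By signals as deposited, 3 of 21 higher genes with a measured neighbour had one at least 2-fold higher (14.3%). So had 3 of 16 lower genes (18.8%) and 28 of 351 that were neither (7.98%). A neighbour at least 2-fold lower lay beside 2 of the 21, 0 of the 16 and 22 of the 351. With the folds of genes and neighbours taken against background, 3 of 18 higher genes with a measured neighbour had one at least 2-fold higher (16.7%). So had 29 of 368 genes that were neither (7.88%), and the lower genes left only 2 with a measured neighbour. None of the 18 had a neighbour at least 2-fold lower, and 15 of the 368 did (4.08%).

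Among long noncoding RNAs whose symbols fall outside the rule, 22 were measured, 1 was higher and 0 were lower, with a median log2 fold change of -0.02. The higher one was CASC15, with 219 and 503. MALAT1, a nuclear speckle RNA, had 16788 and 16502, and DLEU1 had 2504 and 1602. Of 17 long noncoding RNAs linked with TGF-β or epithelial-mesenchymal transition, 7 were measured and 0 differed by 2-fold, MIR100HG by the most. Of 28 genes of microRNA and noncoding RNA processing, such as DROSHA (3877 and 3546) and DICER1 (2117 and 1982), 23 were measured and 0 differed by 2-fold. The largest difference among them was that of AGO4, with 366 and 658, a log2 fold change of 0.85.

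Just inside the limit on the mean signal were MIR3681HG (mean 50.04), LINC02499 (50.09) and SSBP3-AS1 (50.10), and just outside it were LINC01126 (under 50 by a fraction that rounding hides), PSMB8-AS1 (49.9) and EPCIP-AS1 (49.8). Of the genes by symbol, 35 had a mean signal from 50 to 55 and 50 from 45 to 50.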

How the data were processed

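RNA of A549 cells without and with TGF-β was measured on 1 array each. The authors deposited MAS5 intensity values on a linear scale, 1 per probe set, and the tool is named without a version in the submitters' processing notes. Further settings and the genome build are not stated in the paper or labels. After trimming 2% of the signals at either end, both arrays averaged 500.1, the mark of a common scaling target. Probe sets were named through the platform annotation, with symbols updated through RefSeq gene identifiers, which changed 0 of them. Folds per gene were computed in pandas 2.3.3 and numpy 2.4.6 under Python 3.11.15, loess in statsmodels 0.14.6 and plots in matplotlib 3.10.9. The spread quoted beside a gene is the scaled median absolute deviation of log2 fold changes among the 500 probe sets closest to it in mean log2 signal. Background is the brightest Bacillus subtilis control probe set of an array. Genes named were those at least 2-fold higher or lower, and in each class the 3 brightest and those with the largest rise and fall, and others, such as LINC00294, were named after their values were seen. The members and lists were chosen with earlier results of these data known. The 2-fold rule was run on simulated signals with the same spread at every brightness and changes planted only in probe sets brighter than 200. Such a run checks the computation. It cannot show how the rule does among dim genes, whose spread was wider. Alternatives were other limits on the mean signal, a floor at background, an offset of 50, 3 scalings, other choices of probe set and symbols as annotated. No test was run, because each condition had 1 array, and precision is limited by that number.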

Additional observations from a re-analysis of the deposited data

How the results depend on the processing

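The 28 higher and 18 lower genes became 354 and 425 with no limit on the mean signal (1870 genes). They became 12 and 2 with a limit of 100 (241 genes), and 6 and 1 with a limit of 200 (121 genes). Over all genes, 478 were higher and 353 lower of 12305 at the limit of 50. These became 2110 and 2395 of 19775 with no limit, 324 and 167 of 10558 at 100, and 251 and 90 of 9127 at 200. With an offset of 50 added to every signal, 13 and 4 long noncoding RNA genes were higher and lower (all genes 294 and 133). With signals raised to the background level, which was higher on the TGF-β array, 23 and 4 were (all genes 418 and 204). Under equal medians, quantile normalization and loess the counts stayed within 1.5 times, at 32 and 15, 29 and 16, and 30 and 15. Over all genes these scalings gave 544 and 305, 494 and 330, and 522 and 314. The median log2 fold change lay between -0.14 and -0.05 under every alternative run. Of single-gene values, 635 moved by less than the local spread and 22 by more, and none changed sign while called. Many of the 635 could not move. Other limits on the mean signal and symbols as annotated return the same value for a gene. Other choices of probe set do so for genes with 1 probe set, which 247 of the 438 have. In every alternative that gave a value, 12 genes were at least 2-fold higher, among them LINC00312, LINC01279, LINC02086, MIR1915HG and RARA-AS1, and 2 were at least 2-fold lower, ADARB2-AS1 and LINC00488. Alternatives that cannot change a value are counted here too. For LINC01279 and LINC02086, each with 1 probe set and both signals above background, only the offset and the scalings could change it. HOXA-AS2 was under 2-fold when the median over its probe sets was used. Signal over background limits what can be read from the lower genes, and 1 array per condition leaves the variation between cultures unknown.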
